A study of Mus musculus with 16 samples.

Results

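The TAM family comprises the receptor tyrosine kinases Tyro3, Axl and Mertk, and their ligands are the secreted proteins Gas6 and Pros1 (protein S). The 5 genes were taken by their symbols from the table of normalised counts, in which all 5 were listed among 16094 genes. All 5 passed the expression filter (a mean normalised count of at least 5), as did 14672 genes in all. RNA was measured in 16 mouse tumours formed by the melanoma line B16R2L, in 4 groups of 4. Cells of the shCtrl groups carried a non-targeting short hairpin RNA, and cells of the shMdk groups carried a hairpin against Mdk, the gene of the growth factor midkine. From a tumour size of 100 mm3, mice bearing either line were given anti-PD1 at 10 mg/kg (the antibody RMP1-14) or control IgG2a, with 2 doses in each of 2 weeks. The mg/kg are those of the sample labels, and the series' design text gives the same figure in grams per kg. The 4 groups are named shCtrl IgG2a, shCtrl anti-PD1, shMdk IgG2a and shMdk anti-PD1. Each hairpin was represented by 1 line, so an effect of losing Mdk and any other difference between the lines cannot be told apart. The strain, sex and age of the mice were not given in the sources used here.

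TAM receptors bind phosphatidylserine on the outer face of dying cells through Gas6 or Pros1, which bridge the receptor and the dying cell. Gas6 and Pros1 carry gamma-carboxylated glutamates, made by a vitamin K dependent enzyme, and need them to bind phosphatidylserine. Gas6 is a ligand of all the TAM receptors, whereas Pros1 acts on Tyro3 and Mertk. Pros1 is also known as an anticoagulant of blood plasma. In macrophages and dendritic cells, Mertk and Axl drive the uptake of dying cells, called efferocytosis, and dampen inflammatory signalling. Tyro3 is common in neural tissue and in cells of the melanocyte lineage, where it has been linked to the pigmentation programme. High Axl is a known feature of melanoma cells that have lost that programme and of cells that resist targeted drugs.

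Recovered read totals ran from 5686405 to 8886334 per tumour, and the targeted gene Mdk was lower in shMdk than in shCtrl tumours under both antibodies, by 2.16 ± 0.36 (SE) on the log2 scale under IgG2a and by 2.17 ± 0.36 under anti-PD1, with no overlap of the groups. Genes of the melanocyte lineage, the labelled origin of the tumours, summed to 123094 to 206059 normalised counts in every tumour, and none of the 15 was at 0 throughout a group. Libraries stood apart in a pair of ways. In 5 tumours (shCtrl IgG2a tumours 1 and 2, shMdk IgG2a tumours 3 and 4, and shMdk anti-PD1 tumour 1) counts rose with the GC content of the transcript 3′ end, which is called here a positive GC slope. In shCtrl anti-PD1 tumour 2 and shMdk IgG2a tumour 1, the gene model Gm42418, which overlaps ribosomal RNA sequence, took 4.47% and 3.17% of reads, against at most 1.56% in the others. The labels give RNA integrity numbers for the samples together, with a mean of 8.6 and a range of 5.8 to 9.2. Which tumour had the lowest is not stated. Tumour numbers name single tumours and pair nothing.

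In the GRCm38 annotation, Axl (ENSMUSG00000002602.16) lies on the minus strand at chr7:25757273-25788705, Tyro3 (ENSMUSG00000027298.17) on the plus strand at chr2:119797733-119818104, and Mertk (ENSMUSG00000014361.5) on the plus strand at chr2:128698956-128802894. The ligand genes are Gas6 (ENSMUSG00000031451.6), on the minus strand at chr8:13465374-13494490, and Pros1 (ENSMUSG00000022912.8), on the plus strand at chr16:62854307-62929346. All are protein-coding. The 3′ end of Gas6 overlaps Tmem255b on the other strand by 3100 bases, and counting was by strand per the labels. Mertk overlaps the antisense model Gm14011 and a same-strand small RNA gene, Gm23172. The promoter windows of Axl and Tyro3 are shown because their shares of the receptor reads changed in opposite directions. A rise of the Axl share lowers the others, so this choice does not show opposite regulation. The Tyro3 count itself did not pass between the hairpins (log2 difference -0.29 ± 0.15, SE, averaged over antibodies, limma adjusted p = 0.283). Each window runs from 250 bases before to 50 after a RefSeq gene start in GRCm38.p6, 5′ to 3′ on the strand of the gene, with GC boxes (GGGCGG on either strand) in capitals. The Axl window is chr7:25788684-25788983 on the minus strand. The Tyro3 window is chr2:119799264-119799563 on the plus strand, inside the span that the annotation gives for the gene.
Axl: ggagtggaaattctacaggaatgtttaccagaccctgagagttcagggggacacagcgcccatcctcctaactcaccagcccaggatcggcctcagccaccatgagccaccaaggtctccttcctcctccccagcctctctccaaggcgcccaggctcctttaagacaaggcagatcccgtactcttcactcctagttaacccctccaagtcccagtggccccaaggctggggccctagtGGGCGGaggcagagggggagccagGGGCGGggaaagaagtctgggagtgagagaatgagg
Tyro3: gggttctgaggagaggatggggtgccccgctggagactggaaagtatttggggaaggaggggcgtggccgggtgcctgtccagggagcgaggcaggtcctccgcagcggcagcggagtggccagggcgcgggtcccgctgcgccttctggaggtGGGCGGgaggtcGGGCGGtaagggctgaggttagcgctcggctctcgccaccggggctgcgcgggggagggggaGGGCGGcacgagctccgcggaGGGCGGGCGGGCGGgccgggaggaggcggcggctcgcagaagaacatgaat
The Axl window held 2 GC boxes, 6 CpG dinucleotides and 60.3% G and C. The Tyro3 window held 6 GC boxes, 31 CpG and 73.3% G and C. Overlapping boxes were counted separately, and the last run of capitals in the Tyro3 window holds several that overlap. In GC content the Tyro3 window lay above 94.5% of all windows, whereas Axl lay above 71.4%. The windows of Mertk, Gas6 and Pros1 held 4, 4 and 5 GC boxes by the same count, with overlapping boxes in Pros1 only. Of 32851 windows of the same length, 35.7% held at least 1. Of 4 further motifs searched on both strands, the interferon-stimulated response element (in 3.44% of windows), the AP-1 site (TGANTCA, 7.81%) and the M-box (TCATGTG, 3.77%) had no match in any of the 5 windows. The gamma-activated site (TTCNNNGAA, in 8.30% of windows) matched 1 time, in Pros1. These are matches of letters in a window and were not tested as binding sites.

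Levels are normalised counts, which are read counts divided by a scaling factor for each tumour. Each transcript gives reads from its 3′ end only, so the counts are not scaled by gene length. Averaged over 16 tumours, Axl was the most abundant member at 749.6, followed by Pros1 at 358, Tyro3 at 272, Mertk at 142 and Gas6 at 11.6. Axl lay above 88.1% of the 16094 genes, whereas Gas6 lay above 19.7%. The order changed with the hairpin. In shCtrl tumours Axl (means of 331 and 362), Pros1 (279 and 337) and Tyro3 (308 and 294) lay within the spread of one another. In both shMdk groups every Axl value was above every Pros1 value, with lowest Axl values of 516 and 973 and highest Pros1 values of 417 and 595. In each group Mertk and then Gas6 had the lowest means.

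Axl, the receptor most associated with tumour cells and with inflamed macrophages, was higher in shMdk tumours under both antibodies. The 4 shCtrl IgG2a tumours had 496, 301, 271 and 256 normalised counts, with a mean of 331 ± 112 (SD, n = 4). In shCtrl anti-PD1 tumours the values were 392, 213, 439 and 403, with a mean of 362 ± 101 (SD, n = 4). The shMdk IgG2a tumours had 901, 516, 1216 and 1230 (mean 966 ± 336, SD, n = 4), and the shMdk anti-PD1 tumours had 1778, 1440, 1169 and 973 (mean 1340 ± 349, SD, n = 4). All 8 shMdk tumours were above all 8 shCtrl tumours, and the nearest pair was shMdk IgG2a tumour 2 and shCtrl IgG2a tumour 1. Such a separation of 8 from 8, with shMdk higher, was seen in 1.56% of the genes tested. Axl rose 2.86-fold under IgG2a (log2 fold change 1.51 ± 0.30, SE; limma adjusted p = 0.0106) and 3.74-fold under anti-PD1 (1.90 ± 0.30; adjusted p = 0.00117). Averaged over antibodies the log2 fold change was 1.71 ± 0.21 (limma adjusted p = 5.68e-05), which ranked 66 of 14672 genes by p. It was the 1 member of 5 that passed in each of these comparisons, in which 1.74% of all genes passed under IgG2a, 5.93% under anti-PD1 and 8.4% in the average. Without the 5 tumours of positive GC slope, the IgG2a difference was 1.37 and did not pass (adjusted p = 0.0830), while under anti-PD1 it was 1.76 (adjusted p = 0.00373). Leaving out shMdk IgG2a tumour 3 alone also ended the IgG2a call (1.38, adjusted p = 0.0531). In bulk tumours, a different number of cells of a type and a different amount of RNA per cell cannot be told apart.

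**Figure D1:**
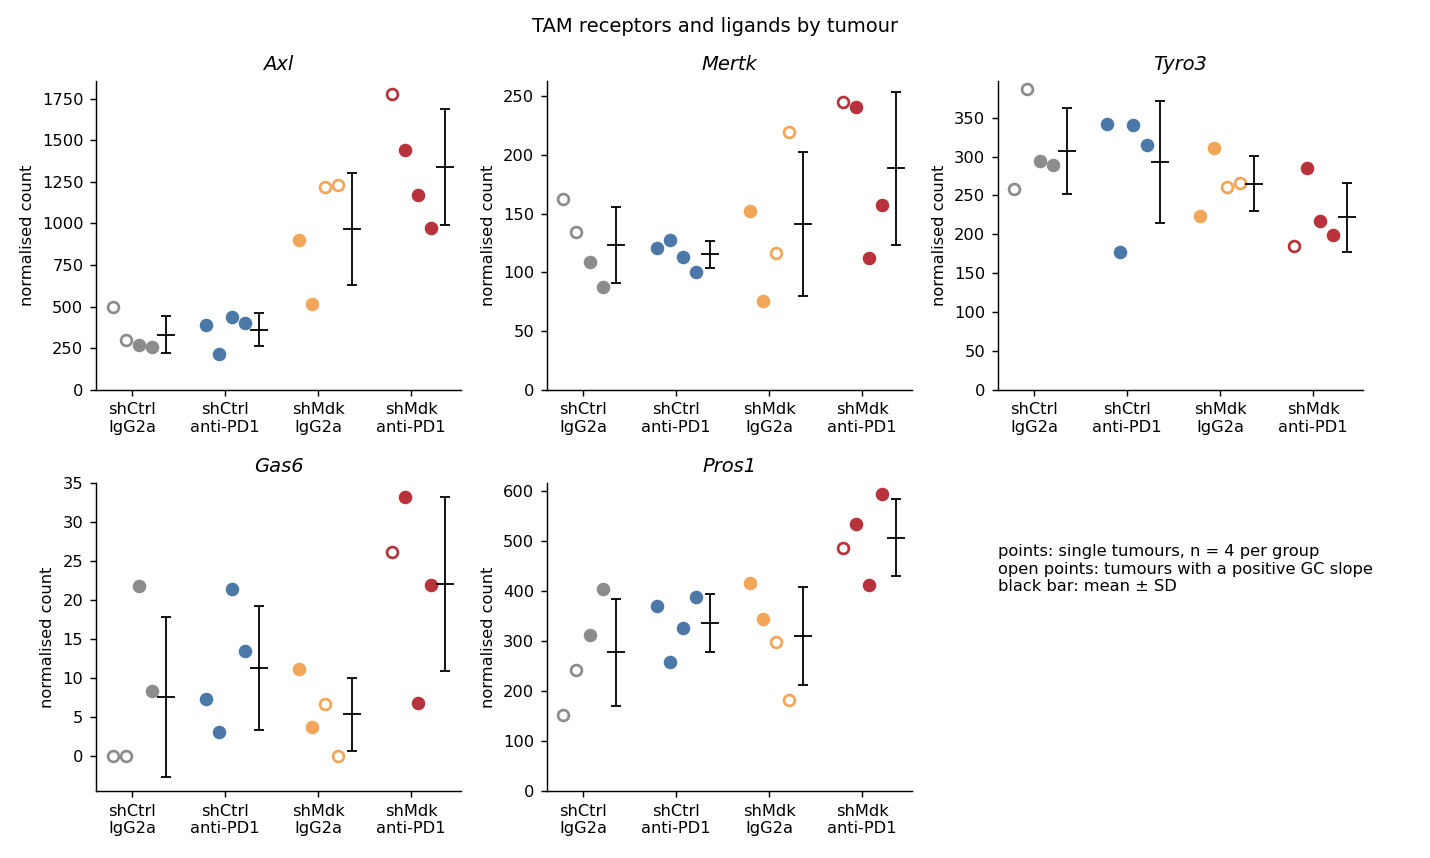
Normalised counts (y axis) of the 3 TAM receptor genes and the 2 ligand genes in each tumour, by group (x axis), with the mean and SD of 4 tumours as a black bar. Axl points of shMdk tumours (516 to 1778) all lie above those of shCtrl tumours (213 to 496), whereas the groups overlap for Mertk, Tyro3 and Gas6.

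Mertk, the main receptor for dying cells on macrophages, did not pass in any comparison. The shCtrl tumours had 162, 134, 108 and 87.7 normalised counts under IgG2a and 120, 128, 113 and 101 under anti-PD1. The shMdk tumours had 152, 75.5, 117 and 220 under IgG2a and 245, 241, 112 and 157 under anti-PD1. The groups overlapped under both antibodies: 3 shMdk anti-PD1 tumours were above all shCtrl anti-PD1 tumours, and the other was within their range. The log2 difference between the hairpins was 0.13 ± 0.30 (SE) under IgG2a (limma adjusted p = 0.967) and 0.64 ± 0.30 under anti-PD1 (adjusted p = 0.280). Averaged over antibodies it was 0.38 ± 0.21 (limma adjusted p = 0.338). With an SE of this size, a difference as large as that of Axl was not seen, and a smaller one cannot be set apart from none.

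Tyro3, the receptor shared by neural and melanocytic cells, had the narrowest range of the members, 2.18-fold from the lowest to the highest tumour. Counts in the shCtrl tumours were 259, 387, 295 and 290 under IgG2a, and 342, 177, 340 and 315 under anti-PD1. The shMdk IgG2a tumours had 224, 311, 261 and 266, and the shMdk anti-PD1 tumours had 186, 285, 218 and 199. Under anti-PD1, 3 of 4 shCtrl tumours were above every shMdk tumour, and shCtrl anti-PD1 tumour 2, a library high in Gm42418, was below all of them. The log2 difference, shMdk minus shCtrl, was -0.21 ± 0.21 (SE) under IgG2a (limma adjusted p = 0.887), -0.37 ± 0.21 under anti-PD1 (adjusted p = 0.385) and -0.29 ± 0.15 averaged (adjusted p = 0.283). Without the 2 libraries high in Gm42418, the anti-PD1 difference was -0.60 and passed (limma adjusted p = 0.0486). Without shCtrl anti-PD1 tumour 2 alone, the average was -0.40 and passed (adjusted p = 0.0418). The direction was the same in all alternatives run on these 3 comparisons.

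**Figure D2:**
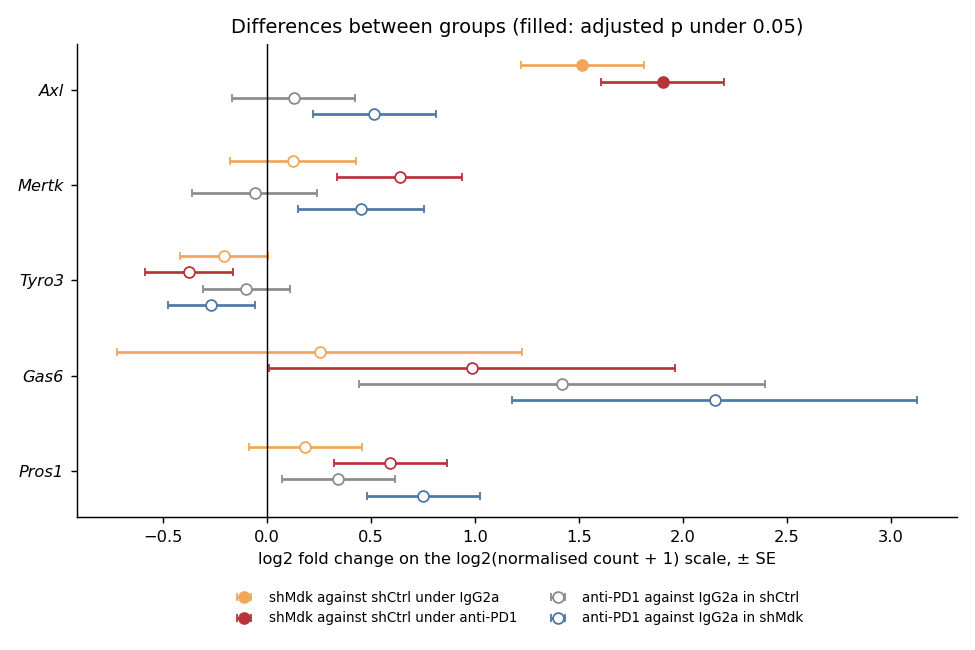
Log2 fold changes with their standard errors (x axis) of the 5 members (y axis) in 4 comparisons of groups of 4 tumours, with filled points where the limma adjusted p was under 0.05. Filled points are seen for Axl in both comparisons of the hairpins, at 1.51 and 1.90, and nowhere else.

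Because the 3 receptor genes were counted in the same libraries, each was also expressed as a share of their summed reads, a quantity in which a rise of one lowers the others. Axl gave 54.1%, 36.6%, 40.2% and 40.4% of receptor reads in shCtrl tumours under IgG2a, and 45.9%, 41.2%, 49.2% and 49.2% under anti-PD1. In shMdk tumours it gave 70.6%, 57.2%, 76.3% and 71.7% under IgG2a and 80.5%, 73.3%, 78% and 73.2% under anti-PD1. The 2 hairpins did not overlap in the Axl share under either antibody. Tyro3 gave 41.2% ± 8.76 (SD, n = 4) in shCtrl IgG2a tumours and 21% ± 9.05 in shMdk IgG2a tumours, and 37.7% ± 2.48 against 13.1% ± 3.14 under anti-PD1. Mertk gave 16% ± 1.58 (SD, n = 4) against 10.1% ± 2.67 under IgG2a and 15.9% ± 5.85 against 10.7% ± 2.18 under anti-PD1. In shCtrl tumours either Axl or Tyro3 held the largest share, and in every shMdk tumour it was Axl.

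Over both antibodies, the Axl share rose by 28.0 percentage points, the Tyro3 share fell by 22.4 and the Mertk share fell by 5.58. The two-sided exact permutation tests, stratified by antibody and adjusted over 12 tests of shares, gave adjusted p = 0.00245 for Axl, 0.00327 for Tyro3 and 0.00245 for Mertk. A rise of one share lowers the others, so these are not 3 separate results. The counts of Tyro3 and Mertk did not pass in the average (limma adjusted p = 0.283 and 0.338). Within IgG2a the adjusted exact p was 0.0429 for Axl and Mertk and 0.0762 for Tyro3, where shMdk IgG2a tumour 2 (34.5%) overlapped shCtrl IgG2a tumour 1 (28.2%). Within anti-PD1 it was 0.0429 for all 3 receptors. An unadjusted p of 0.0286 is the smallest that 4 against 4 tumours allow.

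**Figure D3:**
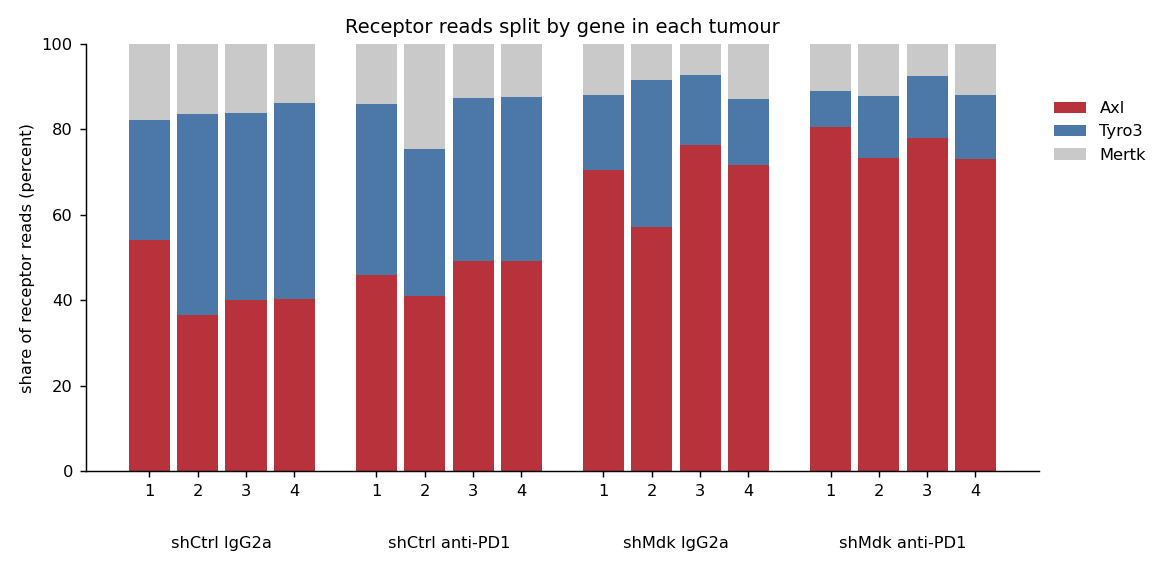
Share of the summed Axl, Tyro3 and Mertk reads given by each gene (y axis, percent) in the 16 tumours (x axis, numbered within groups). The Axl part is 36.6% to 54.1% in shCtrl tumours and 57.2% to 80.5% in shMdk tumours, and most of the difference is taken from the Tyro3 part.

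Gas6, the ligand of all 3 receptors, was close to the detection limit. Normalised counts in shCtrl tumours were 0, 0, 21.9 and 8.31 under IgG2a, and 7.36, 3.00, 21.4 and 13.5 under anti-PD1. The shMdk IgG2a tumours had 11.1, 3.64, 6.64 and 0, and the shMdk anti-PD1 tumours had 26.2, 33.3, 6.78 and 22.0. These values rest on 0 to 34 reads per tumour. The 3 tumours without a Gas6 read were shCtrl IgG2a tumours 1 and 2 and shMdk IgG2a tumour 4, all of positive GC slope, and a count of 0 allows a level of up to 3.38, 3.20 and 3.15 there. These limits cover counting error only. Gas6 passed in no comparison. Its log2 difference between hairpins was 0.25 ± 0.97 (SE) under IgG2a and 0.99 ± 0.97 under anti-PD1 (limma adjusted p = 0.983 and 0.679), and the first changed sign with the pseudocount and in the count models.

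Pros1, the other ligand and a plasma anticoagulant, was far more abundant than Gas6 and was found in every tumour. Tumours of the shCtrl line had 153, 243, 313 and 405 normalised counts under IgG2a, and 372, 260, 327 and 388 under anti-PD1. Those of the shMdk line had 417, 346, 299 and 183 under IgG2a, and 486, 535, 413 and 595 under anti-PD1. The 4 shMdk anti-PD1 tumours were above all other tumours except shMdk IgG2a tumour 1, which at 417 was above 1 of them. Under anti-PD1 the hairpins did not overlap, as was the case with shMdk higher for 8.23% of genes, and the log2 difference was 0.59 ± 0.27 (SE; limma adjusted p = 0.259). Under IgG2a it was 0.18 ± 0.27 (adjusted p = 0.934). With the GC slope of each tumour as a covariate, the anti-PD1 difference was 0.82 and passed (limma adjusted p = 0.0165), as did the average over antibodies (0.57, adjusted p = 0.0143, against 0.39 ± 0.19 and 0.263 without it).

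The ligands differed together between tumours. Over 16 tumours, log2 values of Gas6 and Pros1 had Pearson's r = 0.85 and Spearman's rho = 0.81 (permutation p = 3e-05 and 0.00026, adjusted p = 0.00045 and 0.0039 over 15 relations). The value was 0.80 for deviations from the group means, 0.79 within the 8 shCtrl tumours, 0.94 within the 8 shMdk tumours and 0.80 without shCtrl IgG2a tumours 1 and 2, the farthest in Gas6. Without the 5 tumours of positive GC slope it was 0.55 over 11 tumours. Both ligands were lower where the GC slope was higher, with r = -0.62 for Gas6 and -0.54 for Pros1 (rho = -0.42 and -0.30; permutation p = 0.0115 and 0.0313 for r, adjusted 0.0576 and 0.101). Leaving out the 2 most extreme slopes, shMdk IgG2a tumour 4 and shCtrl IgG2a tumour 1, brought these to -0.32 and -0.10, so they rest on those tumours. Axl and Mertk went the other way, at r = 0.46 and 0.53 (rho = 0.59 and 0.51; permutation p = 0.0746 and 0.0336 for r, adjusted 0.186 and 0.101, and 0.0174 and 0.0446 for rho, adjusted 0.122 and 0.167). Without those 2 tumours r was 0.49 for Axl and 0.40 for Mertk. The last 500 transcript bases held 49.8% G and C in Gas6, 36.6% in Pros1, 48% in Axl, 39.8% in Mertk and 51% in Tyro3. Among the other pairs of members, Axl and Mertk had the highest r, 0.64 (permutation p = 0.00814, adjusted 0.0576), and it was 0.44 without the 2 shMdk anti-PD1 tumours highest in Axl. Within the 8 shCtrl tumours it was 0.35, and within the 8 shMdk tumours it was 0.81. Without the 5 tumours of positive GC slope it was 0.61. Axl and Pros1, at 0.32 over 16 tumours, then had r = 0.78, above the 0.55 of the ligands. Mertk and Pros1, at 0.02 over 16 tumours, had r = -0.91 within the 8 shCtrl tumours and 0.11 within the 8 shMdk tumours. Mertk and Gas6, also at 0.02 over 16 tumours, had -0.76 and 0.27. The values within a line were not tested. The part of the GC slope in the ligand values was not tested beyond the fits given here.

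**Figure D4:**
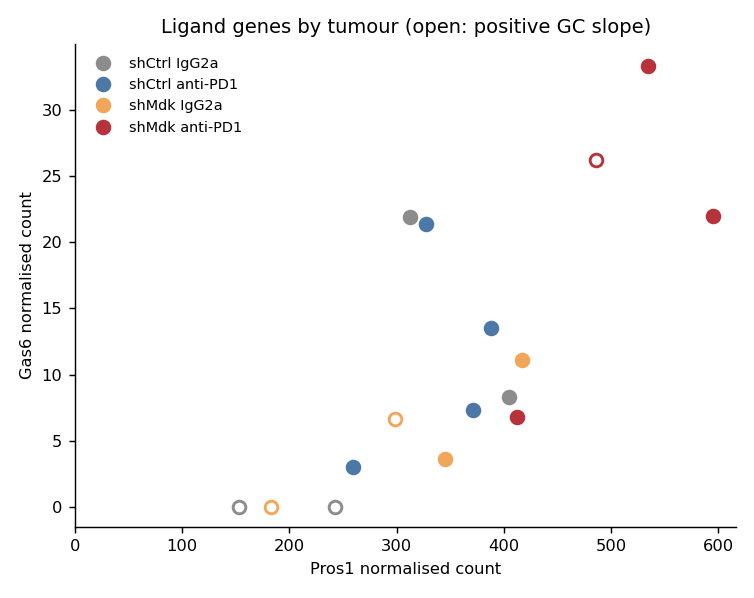
Gas6 against Pros1 (both axes in normalised counts) in the 16 tumours, coloured by group, with open points for the 5 tumours of positive GC slope. The 3 tumours at 0 for Gas6 are open points with Pros1 at 153, 183 and 243, and the highest Gas6 values are in shMdk anti-PD1 tumours.

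No member passed for anti-PD1 in either line. These comparisons use the same tumours as those of the hairpins, and the values are set side by side. In shCtrl tumours, where 0% of 14672 genes passed with limma (556 at an unadjusted p under 0.05, 0 with edgeR and 7 with DESeq2), the log2 difference for anti-PD1 was 0.13 ± 0.30 (SE) for Axl, -0.06 ± 0.30 for Mertk and -0.10 ± 0.21 for Tyro3. The ligands stood at 1.42 ± 0.97 for Gas6 and 0.34 ± 0.27 for Pros1, and no member had an unadjusted p under 0.05. In shMdk tumours 0.0341% of genes passed, and 1826 of 14672 (12.4%) had an unadjusted limma p under 0.05. The differences there were 0.52 ± 0.30 for Axl, 0.45 ± 0.30 for Mertk and -0.27 ± 0.21 for Tyro3. Gas6 differed by 2.15 ± 0.97 (unadjusted p = 0.0413, limma adjusted p = 0.381) and Pros1 by 0.75 ± 0.27 (unadjusted p = 0.0131, adjusted p = 0.302). Without the 5 tumours of positive GC slope the ligand values in shMdk tumours were 1.29 and 0.42. Those in shCtrl tumours turned to -0.52 and -0.10. The difference of the hairpin effect between antibodies passed for no member and for 0 genes with limma, edgeR or DESeq2, with 506 genes at an unadjusted p under 0.05. For Axl it was 0.39 ± 0.42 (SE, limma adjusted p = 0.9998), so the larger value under anti-PD1 is not shown to differ from that under IgG2a.

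Macrophage genes moved with the hairpin as Axl did. Of all genes tested, 1.63% rose under IgG2a, 4.93% under anti-PD1 and 6.23% in the average. Of 16 macrophage and monocyte genes, 6 rose under IgG2a, 13 under anti-PD1 and 14 in the average, and none fell. Their median log2 fold change in the average was 2.22, against -0.02 for all genes tested. Without the 5 tumours of positive GC slope the counts were 0, 10 and 12. Their summed level was 1916 to 2995 normalised counts in shCtrl IgG2a tumours, 2990 to 3690 in shCtrl anti-PD1 tumours, 3291 to 4688 in shMdk IgG2a tumours and 5236 to 9880 in shMdk anti-PD1 tumours, and no gene of the list was at 0 throughout a group. The gene Maf alone gave 71.3% and 72.6% of the sum in the shCtrl groups. Without Maf the sums were 468 to 1038, 350 to 1366, 1419 to 2741 and 3167 to 6700 in the same order. Among the genes that define the lineage, the growth factor receptor Csf1r rose by a log2 fold change of 2.59 ± 0.40 (SE; limma adjusted p = 0.000400) in the average, and the lysosomal glycoprotein Cd68 rose by 1.80 ± 0.22 (adjusted p = 5.27e-05).

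To place the members beside these genes, each was divided by the summed counts of Csf1r, Adgre1, Cd68 and Cd14. That sum had a mean of 225 ± 85.7 (SD, n = 4), 289 ± 117, 868 ± 375 and 1439 ± 556 in the order shCtrl IgG2a, shCtrl anti-PD1, shMdk IgG2a and shMdk anti-PD1. The log2 ratio of Axl differed by -0.41 between hairpins over both antibodies (two-sided exact permutation test, p = 0.0510, adjusted over 9 ratio tests 0.0765). Mertk differed by -1.74 (exact adjusted p = 0.00367) and Pros1 by -1.74 (exact adjusted p = 0.00551). The sum itself rose with the hairpin, so the ratio of a gene that did not change falls. Counts of Mertk and Pros1 did not pass (0.38 ± 0.21 and 0.39 ± 0.19, SE, in the average, limma adjusted p = 0.338 and 0.263). Their lower ratios therefore do not show a fall of either gene, and the Axl ratio did not pass. The choice of genes in the sum decides part of these ratios. With the whole list of 16 genes, of which the transcription factor gene Maf alone was 71.3% and 72.6% of the sum in shCtrl tumours and 41.7% and 33.3% in shMdk tumours, the Axl ratio turned to 0.87 (exact adjusted p = 0.0514). Mertk and Pros1 then differed by -0.46 and -0.46 (exact adjusted p = 0.115 and 0.0652). Maf itself did not pass (log2 fold change -0.14 ± 0.21, SE, limma adjusted p = 0.789), and with the list without Maf the values were -0.43, -1.75 and -1.75. The ratio of Gas6 was not taken because 3 tumours had no read. In which cells the members were expressed was not measured in these bulk samples.

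**Figure D5:**
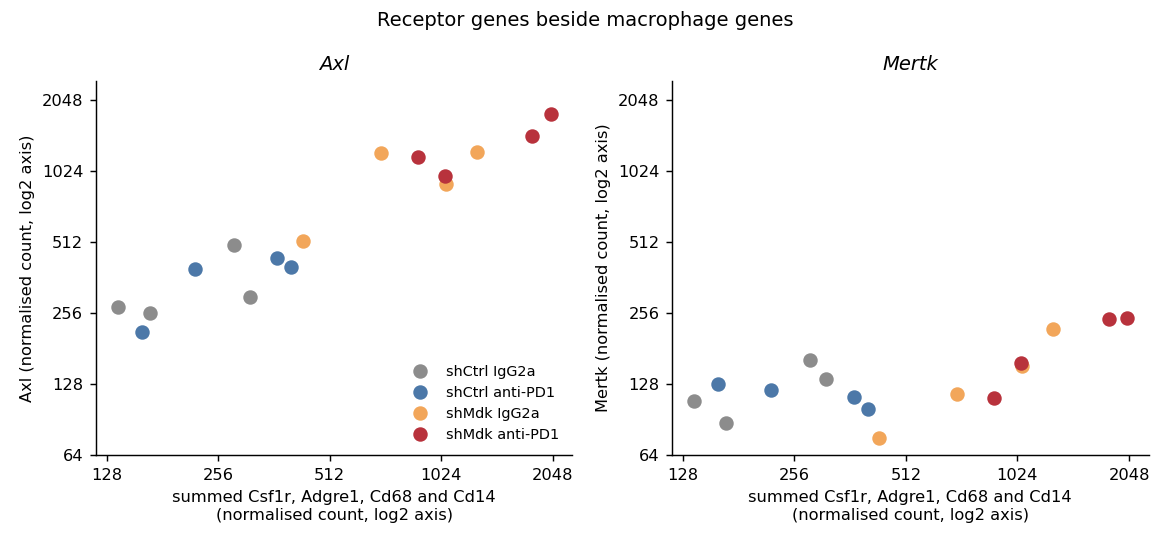
Axl and Mertk (y axes, normalised counts, log2 scale) against the summed counts of Csf1r, Adgre1, Cd68 and Cd14 (x axes, log2 scale) in the 16 tumours, coloured by group. The sum runs from 137 to 2021, and Axl spans 213 to 1778 while Mertk spans 75.5 to 245.

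The genes whose log2 values were most like each member over 16 tumours were listed among 11742 genes with a mean of at least 20, by Pearson's r. For Axl they were Lst1 (r = 0.98), Fcgr4 (0.98), Tapbp (0.97), Slc15a3 (0.97) and Lgals3 (0.97), which are known as a leukocyte transcript, an Fc receptor, the peptide-loading protein tapasin, a lysosomal peptide transporter and galectin-3. For deviations from the group means these r were 0.82 to 0.92. Each of the 5 also rose in shMdk tumours in the average, from 1.67 ± 0.24 (SE) for Tapbp to 2.81 ± 0.35 for Slc15a3. For Mertk they were Fam234a, Tcn2, Map1lc3a, Emp3 and Capg (0.88 to 0.89). For Tyro3 they were Mrps15, Sfxn2, Ska2, Tonsl and Brip1 (0.88 to 0.91). For Gas6 they were Itm2b, Anxa7, P2rx4, Apobec3 and Srp14 (0.89 to 0.92), and for Pros1 they were Tmsb4x, Unc93b1, Ctsc, St3gal1 and Esyt1 (0.93 to 0.95). No gene was named for 2 members. These r are descriptions chosen as the highest of many.

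Genes of the steps around the receptors were counted by list, and differences between lists were not tested. Beside the counts of these and the later lists stand the shares of all genes that rose. These were 1.63% under IgG2a, 4.93% under anti-PD1 and 6.23% in the average. Of 3 genes of vitamin K dependent carboxylation, which modifies the ligands, none passed with limma, edgeR or DESeq2 between the hairpins (1, 0 and 1 at an unadjusted p under 0.05 under IgG2a, under anti-PD1 and in the average). Vkorc1, the epoxide reductase that warfarin inhibits, was at -0.35 ± 0.14 (SE, limma adjusted p = 0.142) in the average. The proteases that shed Axl and Mertk from the cell surface, Adam10 and Adam17, were at 0.24 ± 0.16 and -0.10 ± 0.16, and neither had an unadjusted p under 0.05 or passed with edgeR or DESeq2. Of 10 genes of phosphatidylserine exposure, 1 rose in the average, and 0 did so without the 5 tumours of positive GC slope. A count of 1 in 10 does not set this list apart from the 6.23% of all genes that rose. The scramblase gene Xkr8 of that list was at 0.14 ± 0.21 (SE, limma adjusted p = 0.777).

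Of 19 genes of TAM signalling, 1 rose under IgG2a, 4 under anti-PD1 and 4 in the average, and none fell. Those in the average included the transcription factor gene Stat3 (0.67 ± 0.16, limma adjusted p = 0.0130), the phospholipase gene Plcg2 (0.53 ± 0.14, adjusted p = 0.0247) and the interferon receptor chain Ifnar2 (0.43 ± 0.11, adjusted p = 0.0219). Without the 5 tumours of positive GC slope the counts were 0, 3 and 1. The adaptor Grb2 was at 0.09 ± 0.09, and the feedback inhibitors Socs1 and Socs3, which TAM receptors are known to induce, were at 1.16 ± 0.48 and 0.49 ± 0.59 (limma adjusted p = 0.173 and 0.720). The median of the list was 0.21, against -0.02 for all genes.

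Of 21 other receptors and bridging proteins of efferocytosis, 1 of which (Cd14) is also on the macrophage list, 7 rose under IgG2a and 13 under anti-PD1, 13 rose in the average, and none fell. Without the 5 tumours of positive GC slope the counts were 2, 8 and 11. The median log2 fold change in the average was 1.29. Tgm2, a transglutaminase that acts with integrins in uptake, rose under IgG2a, with means of 51.5 and 403 normalised counts, and under anti-PD1, with 77.5 and 618 (3.02 ± 0.34, SE, in the average, limma adjusted p = 3.45e-05). The phosphatidylserine receptor gene Cd300lf rose by 2.61 ± 0.31 (adjusted p = 4.17e-05), and the complement gene C1qc, whose product bridges dying cells to phagocytes, by 2.38 ± 0.33 (adjusted p = 0.000156). Trem2 rose by 2.08 ± 0.34 (adjusted p = 0.000570) and the integrin gene Itgb5 by 1.39 ± 0.21 (adjusted p = 0.000271). Mfge8, the bridge between phosphatidylserine and those integrins, was abundant (group means from 2304 to 3811) and did not pass at 0.31 ± 0.22 (limma adjusted p = 0.485).

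Of 16 genes of engulfment and digestion, 4 rose in the average. They included the leukocyte GTPase gene Rac2 (1.81 ± 0.23, limma adjusted p = 7.68e-05) and its exchange factor gene Dock2 (2.34 ± 0.41, adjusted p = 0.00112). The others were the adaptor gene Elmo1 (1.28 ± 0.38, adjusted p = 0.0459) and the lysosomal protease gene Ctsl (0.57 ± 0.14, adjusted p = 0.0138). The widely expressed relatives of Rac2 and Dock2, Rac1 (0.11 ± 0.09) and Dock1 (-0.07 ± 0.11), did not pass. Ctsl was also the 1 gene of these lists that passed for anti-PD1 in shMdk tumours, from 479 to 1269 normalised counts (1.39 ± 0.19, limma adjusted p = 0.0152). Of 11 genes of cholesterol handling and metabolism after uptake, 4 rose in the average: the sterol receptor gene Nr1h3 (1.52 ± 0.22, adjusted p = 0.000204), the cholesterol exporter genes Abca1 (1.28 ± 0.24, adjusted p = 0.00221) and Abcg1 (1.56 ± 0.34, adjusted p = 0.00696), and the arginase gene Arg1 (2.89 ± 0.42, adjusted p = 0.000235). Abcg1 did not pass without the 5 tumours of positive GC slope. Of 5 genes of signals that inhibit uptake, 2 rose in the average: Cd47 (0.71 ± 0.12, adjusted p = 0.000878) and Cd52 (2.95 ± 0.34, adjusted p = 3.5e-05). Sirpa, the receptor of Cd47 on phagocytes, was at -0.16 ± 0.38.

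The melanoma programmes that Axl and Tyro3 are associated with were counted in the same way. Of all genes, 1.63% rose under IgG2a, 4.93% under anti-PD1 and 6.23% in the average. Of 15 genes of dedifferentiated melanoma other than Axl, 1 rose under IgG2a, 3 under anti-PD1 and 3 in the average. Those in the average included the matrix genes Tgfbi (2.85 ± 0.34, SE, limma adjusted p = 4.29e-05) and Tnc (1.5 ± 0.39, adjusted p = 0.0211), and in the average Tgfbi alone passed without the 5 tumours of positive GC slope. Tgfbi and Tnc are also known from stromal or myeloid cells. The transcription factor genes Sox9, Zeb1 and Tead1 were at 0.40 ± 0.25, 0.29 ± 0.23 and 0.03 ± 0.10 and did not pass. Of 15 melanocyte genes, none passed between the hairpins with limma or edgeR. At an unadjusted p under 0.05 there were 0 under IgG2a, 2 under anti-PD1 and 3 in the average, and DESeq2 called 1 in the average. Mitf, the master factor of the lineage, was at -0.09 ± 0.13, Mlana at -0.27 ± 0.14 and Sox10 at -0.07 ± 0.14 in the average. Of the 15, 12 were lower in shMdk tumours in the average and 3 higher, with a median of -0.19, against -0.02 for all genes. Their summed level was 168339 to 202612 normalised counts in shCtrl IgG2a tumours and 143720 to 164943 in shMdk IgG2a tumours. Under anti-PD1 the sums overlapped, at 150913 to 206059 and 123094 to 162486. The sums were not tested.

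Genes of other cell types and of the interferon response also differed between the hairpins. Of 8 T and NK cell genes, 2 rose under IgG2a and 6 under anti-PD1 (1 and 3 without the 5 tumours of positive GC slope), and their sum was 6.66 to 66.4 normalised counts in shCtrl tumours and 113 to 389 in shMdk tumours. Of 8 fibroblast genes, 3 rose under anti-PD1, 0 did so without the 5 tumours, and 0 rose in the average with limma or edgeR (2 with DESeq2, 6 at an unadjusted p under 0.05). Under IgG2a none passed with limma, edgeR or DESeq2 (1 at an unadjusted p under 0.05). Their sum reached 14135 in 1 shMdk anti-PD1 tumour against at most 2997 in shCtrl tumours. Of 13 interferon gamma response genes, 10 rose under IgG2a, 9 under anti-PD1 and 11 in the average, and 1, 10 and 11 did so without the 5 tumours of positive GC slope. The part of these cell types and responses in the Axl difference was not tested.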

How the data were processed

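Total RNA of 16 tumours was made into stranded 3′ end libraries (QuantSeq) and sequenced. The authors deposited signal values, which are read counts per gene normalised with DESeq2. The submitters' processing notes name the build GRCm38, the aligners Bowtie 1.0.0 and TopHat2 2.0.10, HTSeq, SAMtools 0.1.19, FastQC 0.11.0 and DESeq2. The deposited values were whole reads divided by 1 factor per tumour, and 100% of them came out whole within 0.001. Samples were grouped by their labels. The labels do not say that each sample is a separate animal, so p-values measure the spread between these samples.

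From these values, log2(normalised count + 1) of the 14672 genes with a mean of at least 5 was fitted over all 4 groups with limma 3.58.1 in R 4.3.3 (trend, 12 residual degrees of freedom) and 7 comparisons were taken, with Benjamini-Hochberg adjustment over all genes and a threshold of 0.05. A fold change on this scale understates the change of low genes. Shares and ratios were compared by two-sided exact permutation tests, within antibody when both were pooled (4900 arrangements). Correlations used 100000 permutations. A GC slope was called positive above 0.05 log2 units per 10% GC of the last 500 transcript bases, and Gm42418 high above 2% of reads. Alternatives were edgeR 4.0.16 and DESeq2 1.42.0 on the recovered reads, other pseudocounts, filters and scalings, each tumour left out, other macrophage sums, and, added after seeing the data, the tumours of positive GC slope or high Gm42418 left out, the GC slope as a covariate, and the macrophage sum without Maf. Members and gene lists were chosen with earlier results of these data known. The fit was tested on simulated data. Named genes are the members, the 5 genes most like each and list genes. Some list genes are not reported here. Totals of 5686405 to 8886334 reads limit precision mainly for Gas6. Promoter windows are RefSeq's (GRCm38.p6), matched by symbol for 5 of 5 members, and gene positions are from GENCODE.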

Additional observations from a re-analysis of the deposited data

Results flagged for a closer look

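Among 48 sets of 4 values, each a member's count, share or ratio in a group, 4 held a tumour far from the others by Dixon's test, which chance gives in about 1 of 20 sets. In shCtrl anti-PD1 tumour 2 the Tyro3 count was 177, against 315 to 342 in the others of its group, and Mertk gave 24.6% of receptor reads, against 12.3% to 14.1%. That library is 1 of the 2 high in Gm42418, and the part of this in either value was not tested. In shMdk IgG2a tumour 2, which had the lowest Axl of the shMdk tumours, Tyro3 gave 34.5% of receptor reads, against 15.5% to 17.5% in the others. In shMdk anti-PD1 tumour 1, which had the highest Axl of all and a positive GC slope, Tyro3 gave 8.40%, against 14.5% to 15.0%.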

How the results depend on the processing

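The Axl difference averaged over antibodies passed in 25 of 25 alternatives, at 1.52 to 1.85 (limma, edgeR and DESeq2 adjusted p from 2.63e-13 to 0.00149), and under anti-PD1 in 17 of 17. Under IgG2a it was 1.37 without the 5 tumours of positive GC slope, where 0 members passed, and 1.37 to 1.79 with single tumours left out, where 0 to 1 members passed. Of all 1285 alternative values, 1202 kept their direction and call or stayed within the set tolerance.

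Numbers of genes past the threshold moved more. For the hairpins under IgG2a, 255 became 449 with DESeq2, 74 without the 5 tumours, 402 with the GC slope as a covariate and 136 to 271 with a tumour left out. Under anti-PD1, 870 became 1310 with DESeq2, 1455 with the covariate and 443 to 858 with a tumour left out. The average of 1233 became 745 without the 5 tumours and 1905 with the covariate. Members past the threshold became 2 under anti-PD1 with the covariate or without the 2 libraries high in Gm42418, 2 in the average with the covariate, and 1 to 2 there with a tumour left out. For anti-PD1 in shCtrl tumours, 0 became 7 with DESeq2, 3 without the 2 libraries and 0 to 2 with a tumour left out. In shMdk tumours, 5 became 248 with DESeq2, 8 with edgeR, 3 with a pseudocount of 0.5, no filter or TMM scaling, 27 with a pseudocount of 5, 11 without the 2 libraries, 1 without the 5 tumours, 74 with the covariate and 0 to 12 with a tumour left out. Averaged over hairpins, 7 became 218 with DESeq2, 11 with edgeR, 39 without the 2 libraries, 0 without the 5 tumours, 15 with the covariate and 4 to 38 with a tumour left out.

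Differences that did not pass changed sign as follows. Gas6 between hairpins under IgG2a was -0.035 with a pseudocount of 5, -0.53 with edgeR, -0.51 with DESeq2, -0.22 without the 2 libraries, -0.96 without the 5 tumours and -0.39 to 1.11 with a tumour left out. With a tumour left out, Mertk there was -0.12 to 0.39 and Pros1 -0.073 to 0.42. The Gas6 average was -0.058 without the 5 tumours, and its difference between antibodies was -0.13 to 1.38 with a tumour left out. For anti-PD1 in shCtrl tumours, Mertk was 0.24 without the 5 tumours, 0.21 with the covariate and -0.21 to 0.085 with a tumour left out, Tyro3 was 0.13 without the 2 libraries and -0.19 to 0.13 with a tumour left out, and Gas6 and Pros1 were -0.52 and -0.10 without the 5 tumours. With the whole macrophage list as the sum, the Axl ratio was 0.92, 0.81 and 0.87 under IgG2a, under anti-PD1 and over both, and the ratios of Mertk and Pros1 over both were -0.46 and -0.46. The cause of these changes was not tested. No paired analysis was possible because the labels give no replicate numbers. Depth limits Gas6, which rests on at most 34 reads.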
